A study of Homo sapiens with 6 samples.

Results

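The 10 genes described here encode the bone morphogenetic proteins BMP2, BMP4 and BMP6, the inhibitor of DNA binding proteins ID1, ID2, ID3 and ID4, the activin subunit INHBA, and the secreted inhibitors GREM1 and FST. They were chosen by symbol, as ligands, inhibitors and target genes of the BMP and activin branches of the TGF-β family, out of 38100 genes in the tables. All 10 were listed, 7 passed the filter on low counts and were tested, and so did 17720 of all genes. The RNA came from HK2 cells, a widely used human cell line from the epithelium of the proximal tubule, labelled as wild type. All cells were stimulated with TGF-β1. The AdCtrl group (n = 3) carried an adenovirus with an empty vector and the AdSIRT4 group (n = 3) carried an adenovirus for SIRT4, so both groups shared the virus and the cytokine and differed in SIRT4. Unstimulated cells were not analysed here, and the dose and time of TGF-β1 for these cells are not given in the sources used here. The promoter that drives SIRT4 in the virus is not given in these sources either. The cells are 1 line. Whether the 3 samples of a group were separate cultures is not stated by the labels, and the study describes its replicates in vitro as technical, so the p-values measure only the spread between these samples.

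BMPs bind type I and type II receptor kinases at the cell surface, which phosphorylate SMAD1, SMAD5 and SMAD9, and these enter the nucleus with SMAD4. The ID genes are the best known direct targets of this BMP branch. ID proteins hold E proteins such as TCF3 and TCF12 in complexes that cannot bind DNA. Activins, dimers of inhibin beta subunits such as INHBA, signal through SMAD2 and SMAD3, the SMADs that TGF-β1 itself uses. Gremlin (GREM1) binds and holds BMP2 and BMP4 outside the cell, and follistatin (FST) does the same to activin. In the kidney, BMP signaling is known mainly for its opposition to TGF-β1 in tubular cells, and gremlin as a gene of the embryonic kidney that is expressed again in fibrosis.

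Values of a group are given in the order of its replicates 1, 2 and 3. The total counts lay between 41537353 and 85684748 per sample. SIRT4, the gene carried by the virus, had 31, 47 and 57 counts in AdCtrl samples and 1996, 7995 and 6827 counts in AdSIRT4 samples (log2 fold change 6.36, standard error (SE) 0.357, adjusted p = 0.00801 in edgeR). Scaled by library size (CPM), it had 0.573, 1.11 and 1.11 in AdCtrl samples and 51.2, 92.7 and 84.0 in AdSIRT4 samples. AdSIRT4 replicate 1 thus had less SIRT4 RNA than AdSIRT4 replicates 2 and 3, and its part in the results was not tested. Of 9 markers of renal epithelium, 7 had a mean of at least 1 FPKM (counts scaled by gene length and library size, a level per length), with KRT8 at 411 ± 12.2 FPKM (SD, n = 3) in AdCtrl cells, whereas CDH1 and PAX2 had lower levels. The markers of a differentiated proximal tubule were nearly absent except GGT1 (1 of 8), and LRP2 and SLC22A6 were listed at 0 in the AdCtrl samples. Of the markers of other cells, 1 of 6 for fibroblasts (LUM), 0 of 6 for endothelium and 2 of 6 for immune cells (CD68 and CD14) reached 1 FPKM, and PTPRC, PDGFRA, COL3A1 and CD3E were at or near 0. The summed level of the fibroblast list was between 5.50 and 6.13 FPKM in AdCtrl samples and between 5.27 and 7.10 FPKM in AdSIRT4 samples. The summed level of the proximal tubule list was between 79.5 and 84.6 FPKM in AdCtrl samples and between 66.4 and 75.6 FPKM in AdSIRT4 samples, and its part in the results was not tested. No marker in any list had an unadjusted p under 0.05. In bulk RNA, fewer cells that express a gene and less RNA of it per cell cannot be told apart.

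AdSIRT4 replicate 1 stood apart from the other AdSIRT4 replicates in a way that followed gene length, and this touched the 10 genes unequally. The difference in log2 CPM (counts scaled by library size) between AdSIRT4 replicate 1 and the mean of replicates 2 and 3 had a median of 0.67 over the 1772 shortest genes (up to 1.32 kb) and of -0.75 over the 1772 longest (from 8.81 kb). The lengths that the tables imply are 1.09 kb for ID3, 1.19 kb for ID1 and 1.49 kb for ID2, which are short, and 6.94 kb for INHBA and 15.5 kb for GREM1, which are long. ID1 was higher by 0.93 in replicate 1, where 625 genes of similar length (within 10%) had a median of 0.62. ID3 was higher by 0.98 (median 0.66 over 534 genes of similar length), and ID2 by 0.63 (median 0.53 over 791 genes). These short genes were thus higher in replicate 1 by somewhat more than genes of their length. INHBA differed by -0.62 (median -0.36 over 1350 genes of similar length), while GREM1 differed by -0.035 where 228 genes of similar length had a median of -0.95. For this reason the tested members are given with AdSIRT4 replicate 1, without it, and after the trend on gene length was removed from every library.

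Over all 6 samples no member of the group passed an adjusted p of 0.05 (0 of 7 tested, where 0.0113% of all genes tested passed in edgeR, 2 of 17720, SIRT4 among them). At an unadjusted p under 0.05, 1 of 7 was higher in AdSIRT4 cells, GREM1, and 0 were lower, where 4.43% of all genes were higher and 3.5% lower. In DESeq2, 1 of 7 passed the adjusted p, again GREM1, where 1.2% of all genes passed. With the replicate number as a block, 0 of 7 passed the adjusted p (0.00564% of all genes passed), and 2 of 7, GREM1 and INHBA, were higher at an unadjusted p under 0.05, where 4.08% of all genes were higher. With the length trend removed, 2 of 7 were higher (GREM1 and INHBA) and 1 of 7 was lower (ID3) at an unadjusted p under 0.05, where 7.59% of all genes were higher and 6.36% lower. Without AdSIRT4 replicate 1, 2 of 7 passed the adjusted p as higher, GREM1 and INHBA, and 1 of 7 as lower, ID3, where 3.37% of 18287 genes were called higher and 3.34% lower. The calls of ID3 and INHBA at an adjusted p therefore rest on leaving out this library or on limma voom with sample quality weights. Without this library the groups also differed fully in total counts, as given above. Over the 19 alternatives tried, the adjusted p ranged from 0.000401 to 0.971 for ID3, from 6.85e-06 to 0.971 for GREM1 and from 0.0252 to 0.971 for INHBA.

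**Figure D1:**
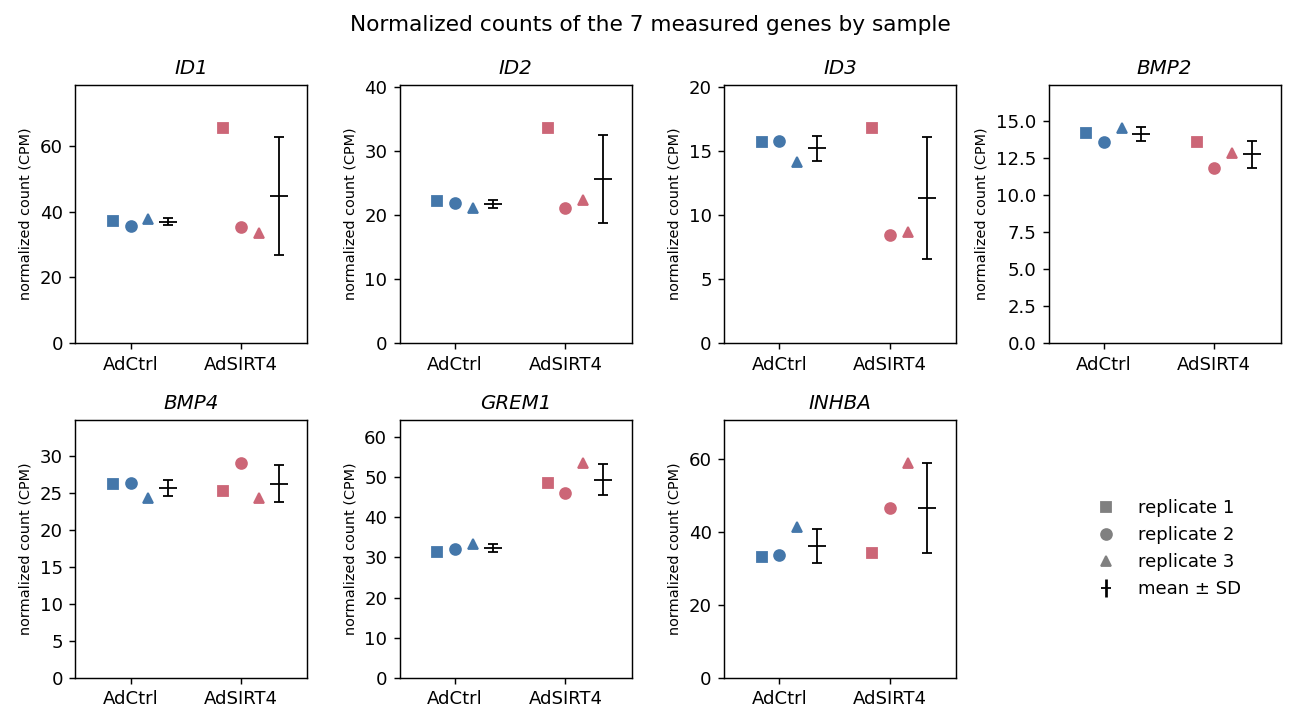
Normalized counts (CPM, vertical axes from 0) of the 7 tested genes in each sample of the AdCtrl (blue) and AdSIRT4 (red) groups, with the replicate number shown by the shape of the point and the mean ± SD (n = 3) in black. GREM1 is higher in each AdSIRT4 sample than in every AdCtrl sample (46.1 to 53.7 against 31.4 to 33.5 CPM), and AdSIRT4 replicate 1 lies apart from replicates 2 and 3 in ID1, ID2 and ID3.

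GREM1, the secreted inhibitor of BMP2 and BMP4, was the member with the smallest p. It lies on the plus strand of chromosome 15 (32718004 to 32745106, GRCh38). Its values were 31.4, 32.2 and 33.5 CPM in AdCtrl samples and 48.5, 46.1 and 53.7 CPM in AdSIRT4 samples. All 3 AdSIRT4 samples exceeded all 3 AdCtrl samples, as held for 9.66% of all genes tested. From a mean of 32.4 ± 1.06 CPM (SD, n = 3) in the control group to one of 49.4 ± 3.85 CPM (SD, n = 3) with SIRT4, the difference was 1.53-fold. GREM1 thus had a log2 fold change of 0.61 (SE 0.0971, unadjusted p = 0.000382, adjusted p = 0.304 by the quasi-likelihood test of edgeR), and the two-sided exact permutation test gave p = 0.1, the smallest value that 3 samples against 3 allow. DESeq2 gave nearly the same log2 fold change, 0.61, with an adjusted p of 6.85e-06. When AdSIRT4 replicate 1 was left out it was 0.62 (SE 0.0713, adjusted p = 0.00127 from edgeR), so the size of the difference was as large without that library. Leaving out each sample in turn gave log2 fold changes between 0.55 and 0.66. Removal of the length trend raised the value in AdSIRT4 replicate 1 to 76.7 CPM, against 41.3 and 45.6 CPM in replicates 2 and 3 and between 29.8 and 30.7 CPM in AdCtrl samples, with a log2 fold change of 0.84 (SE 0.215, adjusted p = 0.183 from edgeR). The groups still did not overlap, as held for 12.7% of all genes after this step.

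INHBA, the subunit of activin A, lies on the minus strand of chromosome 7 (41685114 to 41705406). It had 33.1, 33.6 and 41.5 CPM in AdCtrl samples and 34.2, 46.6 and 59.0 CPM in AdSIRT4 samples. AdSIRT4 replicates 2 and 3 lay above all AdCtrl samples, and AdSIRT4 replicate 1 lay below AdCtrl replicate 3. In each group the highest value was in replicate 3. Over all samples the log2 fold change was 0.37 (SE 0.205, unadjusted p = 0.114, adjusted p = 0.702 from edgeR), with p = 0.2 in the exact permutation test. With the replicate block it was 0.34 (SE 0.133, unadjusted p = 0.0435, adjusted p = 0.693 from edgeR). INHBA was called higher without AdSIRT4 replicate 1, with a log2 fold change of 0.54 (SE 0.126, adjusted p = 0.0473 from edgeR), a 1.46-fold difference. With the length trend removed the AdCtrl samples had 32.4, 32.6 and 39.6 CPM and the AdSIRT4 samples had 41.7, 44.8 and 55.0 CPM, and the groups no longer overlapped, with AdSIRT4 cells higher as held for the 12.7% of all genes given above. After this step the log2 fold change was 0.44 (SE 0.126, unadjusted p = 0.00895, adjusted p = 0.215 from edgeR), and with the block added the unadjusted p was 0.00083 and the adjusted p 0.152. Without AdSIRT4 replicate 3, the highest sample, the difference was only 0.17 (adjusted p = 0.666 from edgeR). INHBA was thus higher in AdSIRT4 cells in each of these fits, and its adjusted p passed the threshold only in those without AdSIRT4 replicate 1 or with sample quality weights.

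FST, the inhibitor of activin, was at the limit of detection, with 0, 0 and 2 counts in AdCtrl samples and 0, 2 and 10 counts in AdSIRT4 samples. Where no count was seen, up to 3 counts remain possible by counting error alone, equal to 0.0559, 0.0713 and 0.0722 CPM in AdCtrl replicates 1 and 2 and AdSIRT4 replicate 1. Only AdSIRT4 replicate 3 exceeded 3 counts. FST was not tested, and no ratio of FST to INHBA was formed because FST had no count in 3 samples.

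ID3, an inhibitor of DNA binding, had the lowest unadjusted p of the ID genes in the fit over all samples and lies on the minus strand of chromosome 1 (23557926 to 23559501). It had 15.7, 15.8 and 14.1 CPM in AdCtrl samples and 16.8, 8.42 and 8.64 CPM in AdSIRT4 samples. AdSIRT4 replicates 2 and 3 were far below all AdCtrl samples, while AdSIRT4 replicate 1 was the highest of all 6 samples. Over all samples the log2 fold change was -0.44 (SE 0.271, unadjusted p = 0.150, adjusted p = 0.720 from edgeR), with p = 0.4 in the exact permutation test. ID3 was called lower without AdSIRT4 replicate 1, with a log2 fold change of -0.84 (SE 0.0870, adjusted p = 0.000719 from edgeR), a 1.79-fold difference. Without AdSIRT4 replicate 2 or 3 instead, the log2 fold change was -0.26 or -0.28 (adjusted p = 0.753 and 0.650 from edgeR), so its size rests on which of these libraries is kept. With the length trend removed the AdCtrl samples had 15.9, 16.3 and 15.1 CPM and the AdSIRT4 samples had 12.1, 9.06 and 9.77 CPM, so that every AdSIRT4 sample lay below every AdCtrl sample, as held for 11.6% of all genes after this step. After this step the log2 fold change was -0.61 (SE 0.119, unadjusted p = 0.000969, adjusted p = 0.125 from edgeR).

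ID1, the member with the highest level, lies on the plus strand of chromosome 20 (31605289 to 31606510). It had 37.3, 35.7 and 37.8 CPM in AdCtrl samples and 65.5, 35.4 and 33.4 CPM in AdSIRT4 samples. AdSIRT4 replicate 1 alone was high, and AdSIRT4 replicates 2 and 3 lay just below the AdCtrl samples. The log2 fold change of 0.27 (SE 0.256, adjusted p = 0.776 from edgeR) turned to -0.11 (SE 0.0634, adjusted p = 0.326 from edgeR) without AdSIRT4 replicate 1 and was 0.10 (SE 0.108) with the length trend removed. ID2, the related gene on the plus strand of chromosome 2 (8682056 to 8684461), had 22.3, 22.0 and 21.1 CPM in AdCtrl samples and 33.6, 21.0 and 22.3 CPM in AdSIRT4 samples. Here too AdSIRT4 replicate 1 was the only sample apart. The log2 fold change of 0.23 (SE 0.185, adjusted p = 0.755 from edgeR) became -0.013 (SE 0.0689, adjusted p = 0.934 from edgeR) without that library and 0.11 (SE 0.0768, adjusted p = 0.554 from edgeR) with the length trend removed. ID4 had 2, 0 and 0 counts in AdCtrl samples and 0, 4 and 2 counts in AdSIRT4 samples and was not tested. The higher values of ID1 and ID2 in AdSIRT4 cells thus rested on 1 library, while the direction of ID3 was the same with and without it. Without that library ID2 had no direction beyond its error. Its log2 fold change was 0.058 (SE 0.0696) when the length trend was removed as well.

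ID1 and ID3 have nearly the same length, so their ratio within a sample sets aside most of a trend that follows length. This ratio was chosen after the values had been seen and was not tested. ID3 per ID1, on the FPKM scale, was 0.460, 0.485 and 0.409 in AdCtrl samples and 0.281, 0.262 and 0.282 in AdSIRT4 samples. The groups did not overlap, and AdSIRT4 replicate 1 lay between the other AdSIRT4 samples. ID3 per ID2 was 0.965, 0.981 and 0.914 in AdCtrl samples and 0.682, 0.547 and 0.529 in AdSIRT4 samples, again without overlap. A ratio between genes shows that they differed unequally between the groups, and not which of them differed.

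BMP2, a ligand held by gremlin, lies on the plus strand of chromosome 20 (6767686 to 6780246). It had 14.2, 13.6 and 14.5 CPM in AdCtrl samples and 13.6, 11.8 and 12.8 CPM in AdSIRT4 samples. The AdSIRT4 samples were all lower, as held for 9.77% of all genes, but AdSIRT4 replicate 1 and AdCtrl replicate 2 were equal at the precision given. BMP2 had a log2 fold change of -0.15 (SE 0.101, adjusted p = 0.734 from edgeR), and -0.20 (SE 0.0805, adjusted p = 0.154 from edgeR) without AdSIRT4 replicate 1, but -0.089 without AdSIRT4 replicate 2. With the length trend removed it was -0.14 (SE 0.0886, adjusted p = 0.518 from edgeR), and the groups overlapped. BMP4, the other ligand held by gremlin, lies on the minus strand of chromosome 14 (53949736 to 53956891) and had 26.2, 26.4 and 24.4 CPM in AdCtrl samples and 25.3, 29.1 and 24.4 CPM in AdSIRT4 samples. The groups overlapped, and the log2 fold change of 0.034 (SE 0.106, adjusted p = 0.917 from edgeR) was smaller than its error. It was 0.056 (SE 0.0846, adjusted p = 0.732 from edgeR) without AdSIRT4 replicate 1 and -0.019 (SE 0.127, adjusted p = 0.958 from edgeR) with the length trend removed. BMP6 had between 3 and 14 counts in all samples and was not tested.

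**Figure D2:**
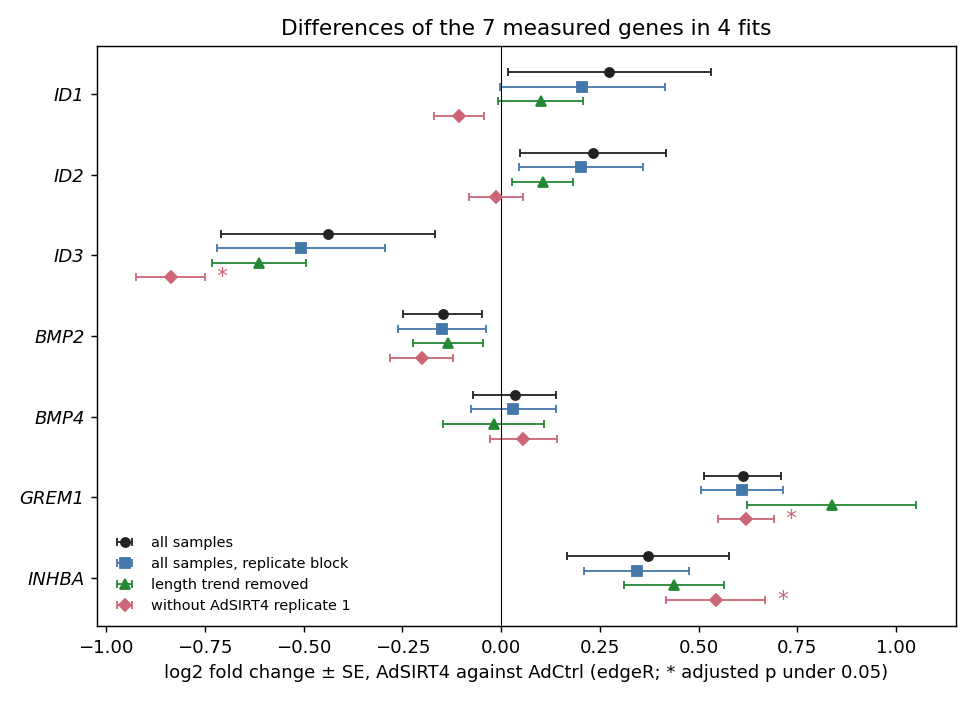
Log2 fold change ± SE of AdSIRT4 against AdCtrl (horizontal axis) for the 7 tested genes in 4 edgeR fits, with a star where the adjusted p was under 0.05. GREM1 lies between 0.61 and 0.84 and ID3 between -0.84 and -0.44 in all 4 fits, whereas ID1 and ID2 lie on both sides of 0.

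Levels can be compared between genes on the FPKM scale, which divides by gene length. In AdCtrl cells ID1 was the highest at 31.3 ± 1.94 FPKM (SD, n = 3), followed by ID2 at 14.8 ± 0.293, ID3 at 14.1 ± 0.490, BMP4 at 12.3 ± 0.266, INHBA at 5.26 ± 0.859, BMP2 at 3.50 ± 0.229 and GREM1 at 2.12 ± 0.113. The ranges of ID2 and ID3 overlapped, and every other neighbour in this order was separated by its samples. BMP6, FST and ID4 followed with means of 0.0207, 0.00451 and 0.00259 FPKM, and their ranges overlapped. In AdSIRT4 cells ID1 (36.5 ± 12.5) and ID2 (16.9 ± 3.64) were again the highest, then BMP4 (12.4 ± 1.49), ID3 (10.1 ± 3.70), INHBA (6.68 ± 2.05), GREM1 (3.26 ± 0.768) and BMP2 (3.08 ± 0.149). BMP4 and ID3, ID3 and INHBA, and GREM1 and BMP2 were not separated there. ID3 thus moved from above BMP4 to below it by its mean, and GREM1 from below BMP2 to above it, in each case into overlapping ranges. The level of GREM1 per length depends on the long gene model of 15.5 kb.

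The inhibitor was also set against its ligands within each sample. GREM1 per summed BMP2, BMP4 and BMP6, on the FPKM scale, was 0.129, 0.129 and 0.142 in AdCtrl samples and 0.185, 0.173 and 0.276 in AdSIRT4 samples. Each AdSIRT4 sample lay above each AdCtrl sample, and AdSIRT4 replicate 3 was the highest. GREM1 itself had 2.70, 2.96 and 4.14 FPKM but 48.5, 46.1 and 53.7 CPM in AdSIRT4 samples. AdSIRT4 replicate 3 thus stood out more by FPKM than by CPM, for which the cause was not tested. The summed BMP level was between 15.8 and 16.0 FPKM in AdCtrl samples and between 14.6 and 17.1 FPKM in AdSIRT4 samples, so the ligand sums overlapped while the inhibitor did not. The summed level of the 4 ID genes was between 57.9 and 61.5 FPKM in AdCtrl samples, 86.4 FPKM in AdSIRT4 replicate 1 and 51.9 and 52.1 FPKM in AdSIRT4 replicates 2 and 3. These ratios and sums are descriptions without a test.

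The promoters of the members whose values the results turn on are shown for comparison. They are the 250 bases before a start of the gene in RefSeq (GRCh38.p14), on the gene's strand. There were 12 such entries, for 9 of the 10 members. Capitals mark CAGAC or its reverse complement GTCTG, a short SMAD binding element, GGCGCC, a GC-rich SMAD element that is its own reverse complement, and TATAAA or its reverse complement TTTATA, the TATA box. They occur on either strand in 38.0%, 16.4% and 10.7% of 35116 promoters of this length.
GREM1, chr15:32717754-32718003, plus strand: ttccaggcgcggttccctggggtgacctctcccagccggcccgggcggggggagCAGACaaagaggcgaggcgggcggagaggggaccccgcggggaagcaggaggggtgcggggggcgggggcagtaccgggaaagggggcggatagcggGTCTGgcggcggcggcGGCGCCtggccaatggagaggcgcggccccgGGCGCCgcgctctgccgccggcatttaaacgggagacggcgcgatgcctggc
INHBA, chr7:41703091-41703340, minus strand: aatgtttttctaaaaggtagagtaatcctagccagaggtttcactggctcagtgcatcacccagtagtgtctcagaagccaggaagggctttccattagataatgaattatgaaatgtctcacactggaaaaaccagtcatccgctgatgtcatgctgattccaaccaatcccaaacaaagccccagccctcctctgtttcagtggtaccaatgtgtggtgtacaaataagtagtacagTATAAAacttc
ID3, chr1:23559502-23559751, minus strand: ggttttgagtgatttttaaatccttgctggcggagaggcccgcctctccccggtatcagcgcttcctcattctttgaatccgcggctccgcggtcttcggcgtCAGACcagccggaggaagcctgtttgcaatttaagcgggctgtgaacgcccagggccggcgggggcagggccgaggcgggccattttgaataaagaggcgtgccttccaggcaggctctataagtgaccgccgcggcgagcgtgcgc
ID1, chr20:31605039-31605288, plus strand: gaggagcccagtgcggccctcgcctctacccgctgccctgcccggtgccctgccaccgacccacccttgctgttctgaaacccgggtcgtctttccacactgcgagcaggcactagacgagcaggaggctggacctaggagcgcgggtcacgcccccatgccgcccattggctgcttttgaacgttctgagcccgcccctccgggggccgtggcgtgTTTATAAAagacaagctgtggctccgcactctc
The printed GREM1 window holds 2 matches of the short SMAD element and 2 of the GC-rich element and is 76.8% G or C. A further GREM1 entry, for a start inside the gene's full span (window 32718234 to 32718483), is not printed. It holds 1 match of the short SMAD element and 0 of the GC-rich element and is 66% G or C. The INHBA window holds 1 TATAAA and is 42.8% G or C, and the RefSeq table gives it for a start inside the gene's full span. The ID3 window holds 1 CAGAC, and the ID1 window holds TATAAA and TTTATA as an overlapping pair and neither SMAD element. The printed windows of GREM1 and INHBA thus had no searched motif in common. A match is a description of letters, not a binding site.

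The other genes of BMP and activin signaling were read from a list of 76, of which 53 were tested. At an unadjusted p under 0.05 in edgeR, 4 of 53 were higher (7.55%) and 6 lower (11.3%), against the shares of 4.43% and 3.5% over all genes given above, and 0 of 53 passed the adjusted p. Their median log2 fold change was -0.059, where that of all genes was 0.021. Without AdSIRT4 replicate 1, 6 of 53 passed the adjusted p as higher (11.3%) and 2 as lower (3.77%), against 3.37% and 3.34% of all genes in the same fit, so that the share of lower calls was near that of all genes. The genes called higher there were SMAD6, SMAD7, FSTL3, CRIM1, KCP and AMH, and those called lower were BAMBI and GDF11.

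Among 13 tested ligands, 1 was higher (7.69%) and 3 were lower (23.1%) at an unadjusted p under 0.05 in edgeR. Over all genes 4.43% were higher and 3.5% lower. AMH, the anti-Müllerian hormone, was higher with a log2 fold change of 0.63 (SE 0.199, unadjusted p = 0.0163), which was 0.38 (adjusted p = 0.0408 from edgeR) without AdSIRT4 replicate 1, the highest sample at 18.8 CPM. GDF11, a ligand of activin receptors, was lower at -0.29 (SE 0.108, unadjusted p = 0.0295), but with the length trend removed it had -0.16 (SE 0.0976, unadjusted p = 0.147) and the groups overlapped. The inhibin subunits INHBE at -0.89 (SE 0.253, unadjusted p = 0.0101) and INHBC at -1.45 (SE 0.450, unadjusted p = 0.0147) were lower as well, the opposite direction to INHBA. INHBE had 22.6, 20.4 and 33.2 CPM in AdCtrl samples and 10.2, 13.4 and 17.6 CPM in AdSIRT4 samples. Every AdSIRT4 sample was lower than every AdCtrl sample, as held for 9.77% of all genes. INHBC was low, at 0.168 ± 0.0716 FPKM (SD, n = 3) in AdCtrl cells. By mean level over all 6 samples INHBE and BMP8B were the leading ligands of this list. In AdSIRT4 cells AMH (6.72 ± 1.53 FPKM, SD, n = 3) was above INHBE (4.84 ± 1.51 FPKM) by its mean, with overlapping ranges. BMP8B, whose reads can be shared with the near-identical BMP8A, had a log2 fold change of 0.050 (SE 0.124).

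None of the 9 receptors had an unadjusted p under 0.05 in the fit over all samples, where 4.43% of all genes were higher and 3.5% lower. The most abundant, ACVR1B, the type I receptor of activin, had 16.5 ± 0.742 FPKM (SD, n = 3) in AdCtrl cells and a log2 fold change of -0.24 (SE 0.114). Its unadjusted p from edgeR was 0.0131 without AdSIRT4 replicate 1 and 0.0218 with the length trend removed. In these fits 12.5% and 6.36% of all genes were lower at an unadjusted p under 0.05. The adjusted p of ACVR1B was 0.101 and 0.276. ACVR1, a type I receptor of BMPs, had a log2 fold change of 0.11 (SE 0.0839). Of 4 tested co-receptors and decoys, 1 was lower at an unadjusted p under 0.05 (25%), against the 3.5% of all genes. This gene was ENG (endoglin), at -0.44 (SE 0.149, unadjusted p = 0.0222 from edgeR). BAMBI, a decoy receptor without a kinase that is known as a BMP target, had 21.5, 18.1 and 20.3 CPM in AdCtrl samples and 19.4, 12.3 and 11.1 CPM in AdSIRT4 samples. It was low in AdSIRT4 replicates 2 and 3 and within the AdCtrl range in replicate 1, with a log2 fold change of -0.49 (SE 0.216, unadjusted p = 0.0570) and of -0.78 (adjusted p = 0.00133 from edgeR) without AdSIRT4 replicate 1. With the replicate block the unadjusted p of BAMBI was 0.0198, under the threshold. RGMB, a BMP co-receptor, had a log2 fold change of -0.26 (SE 0.117). Its unadjusted p from edgeR was 0.0457 without AdSIRT4 replicate 1 and 0.0405 with the length trend removed.

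Of 9 other tested extracellular inhibitors and binding proteins, 1 was higher at an unadjusted p under 0.05 (11.1%) and 0 were lower. Over all genes 4.43% were higher and 3.5% lower. The higher gene was FSTL3, a relative of follistatin that binds activin. It had 68.2, 74.2 and 73.3 CPM in AdCtrl samples and 131.8, 94.1 and 93.6 CPM in AdSIRT4 samples, without overlap, as held for 9.66% of all genes. Its log2 fold change was 0.57 (SE 0.152, unadjusted p = 0.00740), and 0.38 (adjusted p = 0.00363 from edgeR) without AdSIRT4 replicate 1. At 25.4 ± 1.43 FPKM (SD, n = 3) in AdCtrl cells, FSTL3 was far above FST. CRIM1 and TWSG1, which bind BMPs, were the most abundant of this list with 85.2 ± 5.93 and 72.0 ± 3.73 FPKM (SD, n = 3) in AdCtrl cells. Their log2 fold changes were 0.16 (SE 0.154) and -0.059 (SE 0.105). In the fit without AdSIRT4 replicate 1, CRIM1 (0.29, adjusted p = 0.0134 from edgeR) and KCP, a BMP binding protein of the kidney (0.30, adjusted p = 0.0184 from edgeR), were called higher, whereas without AdSIRT4 replicate 3 they had 0.063 and 0.021.

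Among the 10 SMAD and SMURF genes, 2 were higher at an unadjusted p under 0.05 (20%), the inhibitory SMAD7 and SMAD6, and 0 were lower. Over all genes 4.43% were higher and 3.5% lower. SMAD7 had 24.0, 26.0 and 25.3 CPM in AdCtrl samples and 42.7, 40.2 and 43.5 CPM in AdSIRT4 samples, and AdSIRT4 replicate 1 lay between the others. Its log2 fold change was 0.75 (SE 0.0907, unadjusted p = 6.9e-05, adjusted p = 0.204 from edgeR), and 0.73 (adjusted p = 0.000309 from edgeR) without AdSIRT4 replicate 1. DESeq2 over all samples gave an adjusted p of 3.78e-12 for SMAD7. SMAD6, which acts mainly on the BMP branch, had a log2 fold change of 0.25 (SE 0.105, unadjusted p = 0.0452), and its unadjusted p was 0.0778 with the replicate block. SMAD3 and SMURF1, the most abundant genes of this list, had log2 fold changes of 0.097 (SE 0.171) and -0.20 (SE 0.193). None of the 3 E proteins, the partners of ID proteins, had an unadjusted p under 0.05, with log2 fold changes of -0.022 (SE 0.0906) for TCF3 and -0.26 (SE 0.152) for TCF12. Of 5 tested other BMP targets, 2 were lower at an unadjusted p under 0.05 (40%, against the 3.5% of all genes), the transcription factors DLX2 and RUNX2. DLX2 had -0.66 (SE 0.232, unadjusted p = 0.0255 from edgeR) at a mean level under 1 FPKM, and -0.23 on log2(FPKM + 1). RUNX2 had -0.41 (SE 0.174, unadjusted p = 0.0492 from edgeR), and -0.27 without AdSIRT4 replicate 1. MSX1 had a log2 fold change of 0.17 (SE 0.242). BAMBI, CRIM1 and KCP were picked out after their values had been seen, because they were called without AdSIRT4 replicate 1. BAMBI and CRIM1, but not KCP, also had the highest mean level of their role.

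The genes most like each member over the 6 samples were found by the root mean square difference in log2 CPM after each gene was centred on its mean. For GREM1 these were LRIG3-DT (0.053), TNFSF10 (0.066) and LOC105374003 (0.070). For INHBA they were HK2, here the gene of hexokinase 2 (0.054), TNFRSF14-AS1 (0.067) and THBS2, a secreted matrix protein (0.076). For ID3 they were LOC105373902 (0.093), SMIM1 (0.093) and DMTF1-AS1 (0.098), and for BMP2 they were TIMM44, RBCK1 and FRS3 (0.027 each). Likeness here is a description over 6 samples that include AdSIRT4 replicate 1.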

How the data were processed

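Poly-A RNA from 6 samples of HK2 cells was sequenced. The authors deposited raw read counts for each gene. The second deposited table holds FPKM as read here, a unit inferred from the values. Per the labels (the submitters' processing notes), fastp 0.21.0, HISAT2 2.1.0, StringTie 2.1.5, DESeq2 1.30.1 and hg38 were used, and the strand setting of the counting is not given in the sources used here. Of 38100 genes, 9873 had no count in any sample. Exons on the opposite strand overlap 1.72% of ID2 (ID2-AS1) and 1.29% of GREM1 (AC090877.2). All titles name HK2, though the number in the cell-line label differs between samples.

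Groups came from the sample titles. Counts were compared with edgeR 4.0.16 in R 4.3.3 (TMM, filterByExpr with a minimum count of 10, robust quasi-likelihood test, Benjamini-Hochberg adjustment over all genes tested, threshold 0.05). CPM are means with SD. A difference in mean log2 CPM (prior count 1) was compared by exact permutation (two-sided). Gene lengths were computed from the ratio of counts to FPKM. Trends on length were removed with lowess (span 0.3). The alternatives were RLE factors, DESeq2 1.42.0, other count filters, a replicate block, removal of the length trend, limma 3.58.1 on voom values with sample quality weights and on log2(FPKM + 1) or log2(FPKM + 0.1), and each sample left out. The length trend removed together with AdSIRT4 replicate 1 left out was added after seeing the data. The scripts were tested on simulated data.

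Same-numbered samples deviated together from their group means, but weakly. Pearson r across 17720 genes was 0.168, 0.155 and 0.167, and between -0.180 and 0.027 for other pairs. The replicate number was therefore tried as a block in alternative fits. The main fit, the permutation test and the fits not named with a block treated the samples as unpaired. No samples were copies of each other (chi-square per gene from 9.36 to 213 between replicates).

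The members, lists and tests were chosen with earlier results of these data known. Named were all members, SIRT4, the pathway genes of each role with an unadjusted p under 0.05 or with the 2 highest levels, and the 3 genes most like each of the 4 members with the smallest p. Python 3.11.15 with pandas 2.3.3, numpy 2.4.6 and matplotlib 3.10.9 was used for tables and figures.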

Additional observations from a re-analysis of the deposited data

How the results depend on the processing

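The 19 alternatives were counted for 21 of the named genes. These were the 7 tested members, SIRT4, the 10 other genes of the pathway with an unadjusted p under 0.05 in edgeR, BAMBI, CRIM1 and KCP. The further genes named were not counted. Of 396 values, 345 kept their direction and their side of the threshold, 37 passed the threshold in the same direction and 9 changed sign. The other 5, all of SIRT4, lost their call (without each AdCtrl replicate, and in limma on log2(FPKM + 1), also with the replicate block). ID1 changed sign in voom with sample quality weights (-0.069), without AdSIRT4 replicate 1 (-0.107) and with the length trend removed as well (-0.028). ID2 did in voom (-0.021) and without AdSIRT4 replicate 1 (-0.013). BMP4 did with the length trend removed (-0.019), with the replicate block as well (-0.034), without AdCtrl replicate 3 (-0.0015) and without AdSIRT4 replicate 2 (-0.042). When single samples were left out, the log2 fold changes ran from -0.107 to 0.447 for ID1, from -0.013 to 0.364 for ID2, from -0.837 to -0.259 for ID3, from -0.201 to -0.089 for BMP2, from -0.042 to 0.086 for BMP4, from 0.549 to 0.665 for GREM1 and from 0.166 to 0.544 for INHBA. The cause was not tested.

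Against 2 genes called over all genes tested, DESeq2 called 212, the filter of at least 1 count 5, that of at least 10 counts in all samples 4, the replicate block 1, removal of the length trend 12, the same with the replicate block 6, voom 1549, limma 0 on log2(FPKM + 1), 0 on this scale with the replicate block, 1 on log2(FPKM + 0.1) and 5 where the mean was at least 1 FPKM, and removal of the trend without AdSIRT4 replicate 1 1388. Leaving out each sample gave 0 to 1227. Against 0 members at an adjusted p, DESeq2 gave 1, voom 3, removal of the trend without AdSIRT4 replicate 1 3, and the samples left out in turn 0 to 3. Against 1 member at an unadjusted p under 0.05, the replicate block gave 2, removal of the trend 3, the same with the replicate block 3, voom 4, removal of the trend without AdSIRT4 replicate 1 4, and the samples left out in turn 1 to 4. Against 10 other genes of the pathway, removal of the trend with the replicate block gave 16, voom 20, removal of the trend without AdSIRT4 replicate 1 22, and the samples left out in turn 4 to 22. Without AdSIRT4 replicate 1, 4446 of all 18287 genes tested had an unadjusted p under 0.05. Among the 21 genes counted, the replicate block changed no call at an adjusted p other than that of SMAD7 with the length trend removed (adjusted p = 0.0215 without and 0.0907 with the block, edgeR). ID4, BMP6 and FST were too shallow to test.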
